A study of Mus musculus with 9 samples.

Results

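The genes described here are 10 transcription factors that guide progenitors into the T-cell lineage and keep them there: Tcf7, Lef1, Bcl11b, Gata3, Runx1, Ets1, Myb, Ikzf1, Tcf3 and Tcf12. They were chosen by name for their known role in thymocytes, and each was read in 7 lists of peaks, at its annotated starts and over its surroundings. RefSeq's gene table for GRCm38.p6 lists 21887 protein-coding genes, of which these are 10. Starts were read in the same way for 17492 protein-coding genes with annotated starts, of which 9 were lineage factors. Ets1 was read at both ends of its gene record instead, because its strand and transcript starts were not in the tables used here.

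Tumour cells came from the thymus of C57BL/6J mice with a T-cell lymphoma driven by MYCN, the gene that encodes N-MYC. They were profiled by ChIPmentation, a chromatin immunoprecipitation in which a transposase adds the sequencing adapters to chromatin still held by the antibody. There was 1 library for each of 7 antibodies, against H3K4me3 (a mark of active promoters), H3K27ac (a mark of active promoters and enhancers), the acetyltransferase p300, the transcription factor N-MYC, EZH2 and SUZ12 (subunits of Polycomb repressive complex 2) and H3K27me3 (the repressive mark that this complex deposits). The series also has 2 input libraries, without antibody, which were not analysed here. All 9 samples share the MYCN-driven model, and no library of normal thymus was analysed here. The labels do not give the promoter that drives MYCN, the age or number of the mice, or whether mice were pooled, and 1 library per antibody leaves every value below without a replicate and without a test.

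The lists held between 9798 and 123056 peaks, all with a q-value of 0.01 or lower, and the read depth behind them is unknown. A site without a peak is one at which no call was made, which does not show that the mark or protein was absent. In chromatin from many cells, fewer cells carrying a mark and less of the mark per cell cannot be told apart. Of 7 T-cell marker genes read, 6 had both H3K4me3 and H3K27ac peaks within 1 kb of a start (49.4% of all genes), namely Cd3d, Cd3e, Cd3g, Cd5, Lck and Ptprc, while Cd8a had an H3K27me3 peak alone. Both active marks were present at 1 of 3 B-cell markers (Cd79a), 0 of 3 myeloid markers, 1 of 5 thymic epithelial markers (Epcam) and 0 of 2 markers of fibroblasts and endothelium. H3K27ac without H3K4me3 was called at the myeloid markers Cd68 (25.3) and Itgam (4.59) and at the thymic epithelial marker Foxn1 (2.84). Several listed markers had no annotated starts. Those read were 7 of 10 for T cells, 3 of 6 for B cells, 3 of 6 for myeloid cells and 2 of 6 for fibroblasts and endothelium. They were also present at 3 of 3 erythroid markers, Gata1, Klf1 and Epor, whose H3K4me3 peaks had fold enrichments of 12.1 to 19.8. The part of erythroid or other cells in the values below was not tested.

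Thymocyte development is driven by a small network of transcription factors. Notch signals in the thymus switch on Tcf7 and Gata3, whose products in turn help to activate Bcl11b, the gene that closes off the other blood lineages. Runx1, Ets1, Myb and Ikaros (Ikzf1) act in blood progenitors and in T cells alike, and the E proteins E2A (Tcf3) and HEB (Tcf12) drive expression of the pre-T-cell receptor and arrest growth until that receptor signals. Polycomb repressive complex 2 keeps lineage genes silent in cells that do not use them, and EZH2 is its methyltransferase. Several of these factors act as oncogenes or tumour suppressors in T-cell leukaemia and lymphoma.

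N-MYC binds DNA at the E-box CACGTG, and more weakly at variants such as CACGCG. RefSeq promoters of GRCm38.p6 (300 bases, from 250 before to 50 after a start) were available for 17 starts of 9 of the factors, and both motifs were searched on both strands. Sequences from 5 of these promoters are printed below because they show how N-MYC peaks and E-boxes were arranged among the factors. Each stretch runs 5′ to 3′ on the gene's strand, from 170 bases before the start to the end of the first 30 bases of the transcript, and capitals mark an E-box. The first 2 promoters held the summit of an N-MYC peak. The Gata3 main promoter (chr2:9878571-9878770, minus strand) had a summit at -28 bp from the start and neither E-box. The Myb promoter (chr10:21160955-21161154, minus strand) had a summit at -30 bp, with the variant E-box, read as CGCGTG, beginning at -38 bp.
Gata3 main promoter: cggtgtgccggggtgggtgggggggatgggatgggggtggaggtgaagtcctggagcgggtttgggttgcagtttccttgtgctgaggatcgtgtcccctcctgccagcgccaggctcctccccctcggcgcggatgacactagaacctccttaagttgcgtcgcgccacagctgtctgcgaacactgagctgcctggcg
Myb promoter: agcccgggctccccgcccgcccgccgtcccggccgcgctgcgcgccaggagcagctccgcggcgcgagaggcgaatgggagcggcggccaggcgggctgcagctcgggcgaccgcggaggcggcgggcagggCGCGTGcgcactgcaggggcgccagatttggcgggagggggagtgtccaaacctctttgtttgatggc

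The 2 promoters with the canonical CACGTG had no N-MYC peak. At the internal Lef1 start (chr3:131156124-131156323, plus strand) the E-box began at -79 bp. At the distal Runx1 start (chr16:92826045-92826244, minus strand) it began at -71 bp. The proximal Runx1 promoter (chr16:92697300-92697499, minus strand) is shown with it because the pair differs in base composition: the printed stretch of the distal promoter held 2 CG dinucleotides and that of the proximal promoter held 21.
Lef1 internal start: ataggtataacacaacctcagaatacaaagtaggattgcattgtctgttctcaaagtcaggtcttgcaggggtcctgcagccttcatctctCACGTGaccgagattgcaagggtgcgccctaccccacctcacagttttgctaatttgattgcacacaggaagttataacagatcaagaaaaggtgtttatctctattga
Runx1 distal promoter: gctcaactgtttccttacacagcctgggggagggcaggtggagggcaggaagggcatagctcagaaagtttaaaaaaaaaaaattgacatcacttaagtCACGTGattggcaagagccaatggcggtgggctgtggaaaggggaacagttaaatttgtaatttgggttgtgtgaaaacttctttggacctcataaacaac
Runx1 proximal promoter: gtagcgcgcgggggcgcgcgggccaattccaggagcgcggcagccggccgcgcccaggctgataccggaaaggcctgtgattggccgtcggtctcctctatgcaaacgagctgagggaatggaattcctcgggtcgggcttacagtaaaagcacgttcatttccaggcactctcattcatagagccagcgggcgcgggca

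Across all promoters in the table, CACGTG occurred in 7.15% of 32851, and 41.9% of the 2349 promoters with it overlapped an N-MYC peak, against 20% of those without it. Among the lineage factors, 8 of 17 promoters overlapped an N-MYC peak and 6 of these 8 held neither E-box in the 300 bases. Lack of CACGTG under N-MYC was usual in the whole table too. There, 6094 promoters without CACGTG overlapped an N-MYC peak, against 985 with it. The share with neither E-box was not counted over all promoters. The variant CACGCG was present in 9.27% of all promoters and in 3 of the 17, those of Myb, Ikzf1 and a downstream start of Tcf12. At Ikzf1 the variant began at 16 bp and at Tcf12 at -104 bp, both read as CGCGTG. N-MYC summits also lay inside the promoters of Tcf3 (-47 bp) and Tcf12 (-14 bp), where no E-box was found. Letters missing from a window of this length say nothing of where N-MYC binds, since a peak extends beyond it. The promoters were rich in CG, with a median of 21 CG dinucleotides and 67.3% G+C, against 7 and 52.7% over all promoters. The range was wide, from 0 CG dinucleotides at an internal Tcf12 start to 52 at Ikzf1.

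A further 3 motifs of factors in the group were searched in the same windows on both strands. TGTGGT, a core Runx motif, occurred in 16.8% of all promoters and among these factors at the distal Runx1 promoter alone, with 2 matches at 28 and 36 bp. CTTTGA, a core motif of the Tcf7 and Lef1 proteins, was in 16.0% of all promoters and in those of Bcl11b (-89 bp) and the internal Lef1 start (-180 and -120 bp). CCGGAA, an Ets core, was in 14.9% of all promoters and in those of Gata3, Tcf3, Tcf7 and proximal Runx1. These matches are letters in a window, not measured sites.

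Nearly all of the factors carried active chromatin at a start. A peak within 1 kb of a start was present for H3K4me3 at 9 of the 10 genes (52.9% of all 17492 genes), for H3K27ac at 10 (52.9%), for p300 at 9 (41.3%), for N-MYC at 8 (34.7%) and for EZH2 at 9 (47.0%). SUZ12 was found at 2 genes (13.3%) and H3K27me3 at 3 (25.2%). The 5 lists with high counts were also frequent at active promoters in general: among the 9253 genes with H3K4me3 at a start, 93.4% had H3K27ac, 77.6% p300, 65.1% N-MYC and 74.4% EZH2, and 10.2% and 15.7% had SUZ12 and H3K27me3. The exceptions were Ets1, which had H3K27ac alone at the ends of its record, and Runx1, which had no N-MYC peak at either start.

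**Figure D1:**
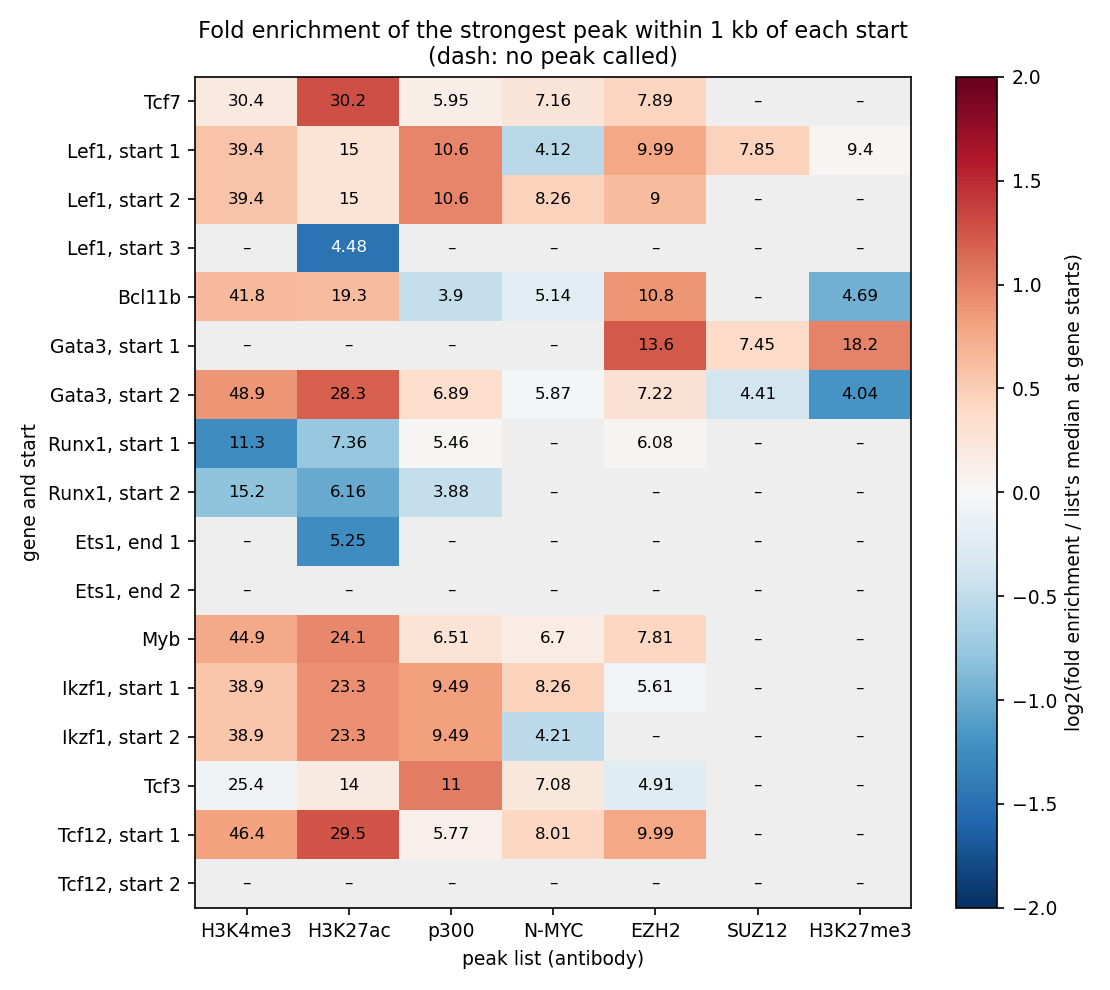
Fold enrichment (printed in each cell) of the strongest peak within 1 kb of each start, for 7 antibodies in columns and the starts of 10 genes in rows, numbered 5′ to 3′; colour gives log2 of the fold enrichment over the list's median at gene starts, and a dash marks no peak. SUZ12 and H3K27me3 peaks appear at Lef1, Bcl11b and Gata3 only, and EZH2 peaks appear in most rows.

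The 5 genes Tcf7, Myb, Ikzf1, Tcf3 and Tcf12 had H3K4me3, H3K27ac, p300, N-MYC and EZH2 at a start and neither SUZ12 nor H3K27me3, a combination found at 25.6% of all genes and at 48.5% of genes with H3K4me3. With Runx1 added, 6 genes had EZH2 without either of the other Polycomb peaks, against 32.7% of all genes and 61.7% of those with H3K4me3. Lef1 and Gata3 had peaks of all 7 lists at their starts (0.966% of all genes and 1.83% of those with H3K4me3). Both have more than 1 start, and the share with all 7 lists was 3.15% among the 2384 genes with 2 or more separate groups of starts. Bcl11b had 6 of the 7, without SUZ12. H3K4me3 together with SUZ12 or H3K27me3 was found at these 3 genes and at 8.38% of all genes.

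Tcf7 encodes TCF-1, the first T-cell-restricted factor that Notch induces and a partner of beta-catenin. Its starts lay inside an H3K4me3 peak of 12310 bp, the second widest at any of the 9253 genes with such a peak, with a fold enrichment of 30.4 (percentile 63.4). The fold enrichment, here and below, is the authors' ratio of signal to background for a peak, and is compared only between genes within a list. H3K27ac covered nearly the same interval with a peak of 13588 bp and a fold enrichment of 30.2 (percentile 98.4). Tcf7 thus had a broad domain of both marks rather than an extreme H3K4me3 height. A p300 peak of 5908 bp had a fold enrichment of 5.95, the strongest N-MYC peak 7.16 and the EZH2 peak, 4103 bp wide, 7.89. All 5882 bp of EZH2 peaks within the gene record and 20 kb either side lay on H3K4me3 and on H3K27ac, and none lay on SUZ12 or H3K27me3.

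Lef1 encodes the close relative of TCF-1 that acts with it at later thymic stages and is also a tumour suppressor or oncogene in T-cell leukaemia, depending on context. The marks of the Lef1 start region lay largely on different sides of the first start. An H3K4me3 peak of 6092 bp (fold enrichment 39.4, percentile 90.7) ran from -1.45 to 4.64 kb of the first start. H3K27ac (15) and p300 (10.6, percentile 98.4) began at or after that start, from 0.018 and 0.565 kb. SUZ12 (7.85) and H3K27me3 (9.40) covered the upstream side, from -4.01 to 0.003 kb and from -4.02 to -0.112 kb. A further SUZ12 peak of 3.50 lay on the acetylated side, at 0.395 to 0.769 kb. The H3K4me3 peak overlapped H3K27me3 over part of its length, whereas the 11309 bp of H3K27ac peaks in the region shared 0 bp with H3K27me3.

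EZH2, like SUZ12, had peaks on both sides of the first Lef1 start. An EZH2 peak of fold enrichment 9.99 lay upstream, from -4.03 to -0.433 kb, over SUZ12 and H3K27me3. A second, of 9, ran from -0.289 to 1.72 kb, into the acetylated side. Of 5610 bp of EZH2 peaks in the region, 75.9% lay on SUZ12 or H3K27me3 and 69.6% on H3K4me3. N-MYC peaks of 4.49 and 3.61 lay upstream of the first start, at -4.93 to -4.62 kb and at -4.46 to -3.91 kb. Both overlapped SUZ12 and H3K27me3 peaks and lay off H3K4me3. The strongest N-MYC peak (8.26) lay at 1.63 to 2.97 kb, over a second start 2494 bp downstream. No SUZ12 or H3K27me3 peak lay within 1 kb of that start. The EZH2 peak ending at 1.72 kb met its window only at the edge, and no EZH2 peak lay over its promoter. Another start, 45997 bp downstream, had a lone H3K27ac peak of 4.48.

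Gata3 encodes the zinc-finger factor needed for early T-cell survival, CD4 T cells and T helper 2 cells. At its main start H3K4me3 was the strongest of the group. It reached a fold enrichment of 48.9 over 9126 bp, which ranked 13 for fold enrichment and 21 for width among 9253 genes. H3K27ac was 28.3 (percentile 97.4), p300 6.89 and N-MYC 5.87 (percentile 47.6). The N-MYC value was thus in the middle of its list while both active marks were near the top of theirs.

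Upstream of this start Gata3 lay in a Polycomb domain. The 5′ end of the gene record, at -9353 bp from the main start, had no H3K4me3, H3K27ac, p300 or N-MYC peak. It lay inside an EZH2 peak of 16017 bp (fold enrichment 13.6, percentile 98.2), a SUZ12 peak of 16201 bp (7.45) and an H3K27me3 peak of 19901 bp (18.2, percentile 93.2). The EZH2 and SUZ12 peaks ended at -3.00 and -2.79 kb, and the H3K27me3 peak at -1.78 kb, close to the upstream edge of H3K4me3 at -1.25 kb. Smaller peaks lay within 1 kb of the main start, an EZH2 peak of 3.88 over the start itself and one of 7.22 at 0.195 to 0.685 kb. H3K27me3 of 4.04 ran from 0.004 to 0.398 kb, while SUZ12 of 4.41 ended at -0.948 kb and met the window only at its edge. Of 21423 bp of EZH2 peaks around Gata3, 82.0% lay on SUZ12 or H3K27me3 and 22.2% on H3K4me3.

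Bcl11b encodes the zinc-finger repressor that seals T-cell commitment and is a haploinsufficient tumour suppressor. Its start had H3K4me3 of 41.8 over 8306 bp (percentile 94.8 for fold enrichment, rank 29 for width) and H3K27ac of 19.3. EZH2 reached 10.8 (percentile 95.4), while N-MYC (5.14, percentile 33.6) and p300 (3.90, percentile 14.0) were in the lower part of their lists. The Polycomb peaks were small. H3K27me3 of 4.69 (percentile 17.0) lay at -2.73 to -1.06 kb, and a SUZ12 peak of 3.62 at -2.25 to -2.04 kb was outside the window. The EZH2 peak ran from -0.982 to 1.74 kb and held a further H3K27me3 peak, of 3.58 and 200 bp, at 0.32 to 0.519 kb. This overlap was 5.81% of the 3444 bp of EZH2 peaks, all of which lay on H3K4me3 and on H3K27ac. Bcl11b had no H3K27me3 peak at its starts when every list was cut to the 9798 peaks of the shortest one.

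**Figure D2:**
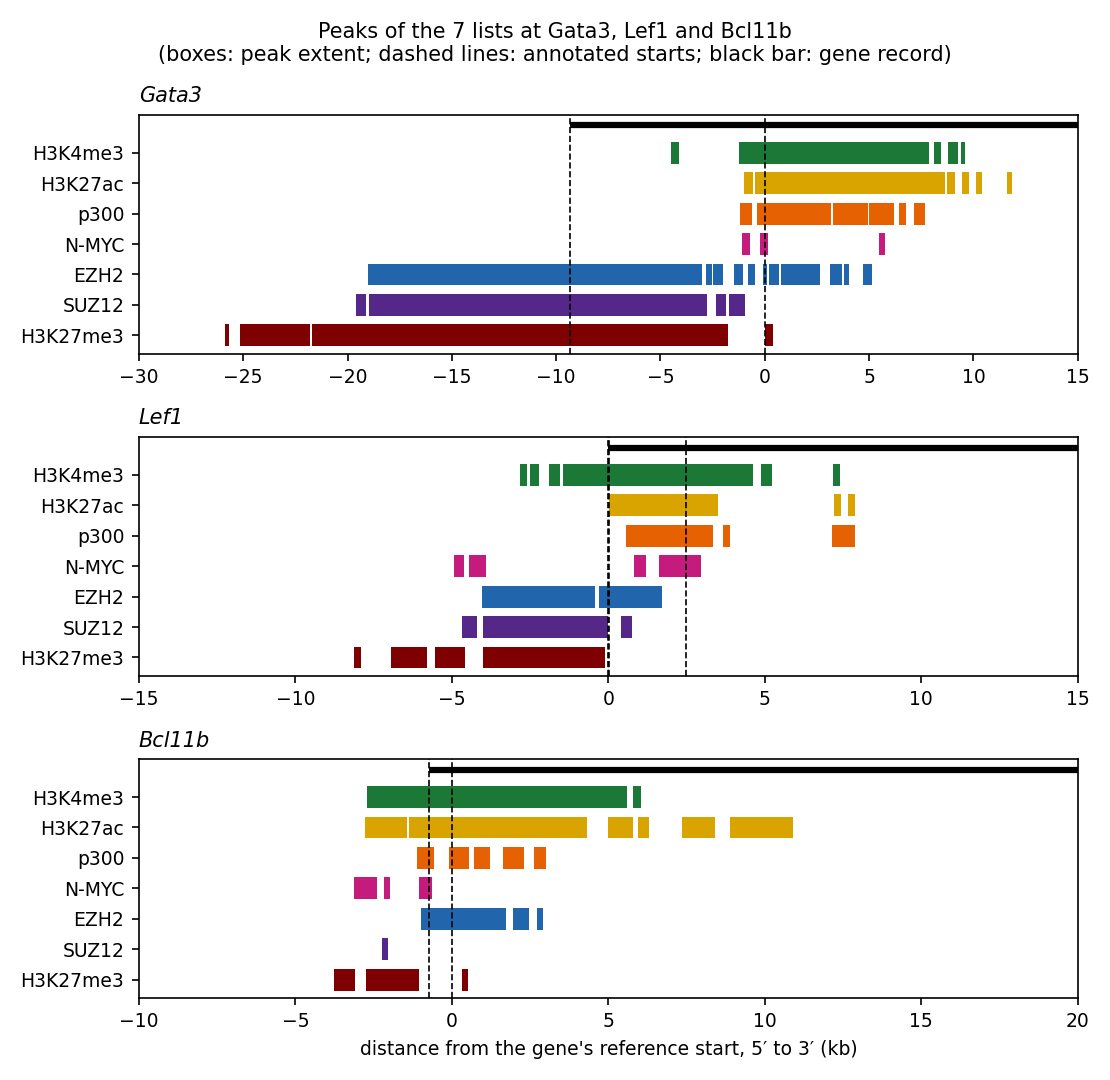
Extent of the peaks of 7 lists (rows of boxes) at Gata3, Lef1 and Bcl11b against distance from the reference start in kb, 5′ to 3′; dashed lines are annotated starts and the black bar is the gene record. At Gata3 the EZH2, SUZ12 and H3K27me3 domains end near the upstream edge of H3K4me3, at Lef1 EZH2 crosses from SUZ12 and H3K27me3 into H3K4me3, and at Bcl11b EZH2 sits at the start with small SUZ12 and H3K27me3 peaks upstream and an H3K27me3 peak within it.

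Runx1 encodes the core-binding factor that is needed for blood stem cells to form and that silences Cd4 in early thymocytes. Its 2 promoters lie 128745 bp apart. The distal promoter had H3K4me3 of 11.3, H3K27ac of 7.36, p300 of 5.46 and EZH2 of 6.08. The proximal promoter had H3K4me3 of 15.2, H3K27ac of 6.16 and p300 of 3.88, with no EZH2 peak. Runx1 had the lowest H3K4me3 of the 9 genes with a peak, at percentile 19.5 of fold enrichment, although the distal peak was 4211 bp wide (percentile 90.2). No N-MYC peak lay at either promoter, and the only one within 100 kb of the gene was inside it, 24.0 to 24.4 kb downstream of the distal start.

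Ets1 encodes the founding member of the Ets family, which is abundant in resting T cells and thymocytes. At the ends of its record the only peaks were H3K27ac, the strongest of 5.25 at the lower-coordinate end. Inside the record, 58.6 to 68.1 kb from that end, stood an H3K4me3 peak of 9468 bp with a fold enrichment of 35.9. H3K27ac over the same place was 26.1 across 13901 bp and p300 was 8.75 across 6847 bp. N-MYC (5.65) and EZH2 (7.67 and 6.82) peaks lay there as well, and SUZ12 and H3K27me3 had none within 20 kb of the record. The interior of Ets1 thus showed the combination seen at the starts of Tcf7, Myb, Ikzf1, Tcf3 and Tcf12, and counts by start leave it out.

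Myb encodes c-Myb, a proto-oncogene that is high in progenitors and proliferating thymocytes. Its single start had H3K4me3 of 44.9 (percentile 98.3), H3K27ac of 24.1 (percentile 93.2), p300 of 6.51 and EZH2 of 7.81. It had 3 N-MYC peaks over the first part of the gene, with fold enrichments of 3.39, 6.70 and 5.14, and the strongest had its summit 1198 bp downstream of the start. The peak printed above at -30 bp was thus the weakest of the 3.

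Ikzf1 encodes Ikaros, a zinc-finger factor of lymphoid development and a tumour suppressor in lymphoid leukaemia. It had H3K4me3 of 38.9 over 9875 bp (rank 14 for width), H3K27ac of 23.3 over 13733 bp (rank 19) and p300 of 9.49 over 7476 bp (rank 3 of 7221 genes). N-MYC was 8.26 and EZH2 5.61 (percentile 45.8). A start 4252 bp downstream lay in the same H3K4me3, H3K27ac and p300 peaks, with a separate N-MYC peak of 4.21 and no EZH2. The start of Gm11999, an annotated neighbour, falls in the window of the first Ikzf1 starts, so the peaks there cannot be assigned to Ikzf1 alone.

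The E-protein genes Tcf3 and Tcf12 had narrower H3K4me3 peaks than the other factors with one. Tcf3, which encodes E2A, had H3K4me3 of 25.4 (percentile 46.2) over 3519 bp, H3K27ac of 14.0, p300 of 11 (percentile 99), N-MYC of 7.08 and EZH2 of 4.91 (percentile 30.7). Tcf12, which encodes HEB, had H3K4me3 of 46.4 (percentile 99.2) over 3376 bp, H3K27ac of 29.5 (percentile 98.1), p300 of 5.77, N-MYC of 8.01 and EZH2 of 9.99 (percentile 93.4). By fold enrichment these related genes were therefore ranked in opposite ways, Tcf3 high for p300 and lower for the histone marks and EZH2, Tcf12 the reverse. By width this order did not hold. Width percentiles of Tcf3 and Tcf12 were 94.5 and 61.0 for H3K27ac and 60.2 and 76.7 for p300. They were close for H3K4me3 (79.8 and 76.5) and EZH2 (76.3 and 75.6). An internal Tcf12 start, 215723 bp downstream, had no peak of any list.

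H3K4me3 peaks were wide at several of the factors. The median width of the widest peak at a start was 6092 bp over the 9 genes with one and 2514 bp over all 9253 genes. A peak wider than 5000 bp was found at 6 of the 9 genes, Tcf7, Lef1, Bcl11b, Gata3, Myb and Ikzf1, against 3.97% of the 9253. Myb, at 5010 bp, was just inside this limit and Runx1, at 4211 bp, was the nearest outside it. Tcf3 and Tcf12 lay at percentiles 79.8 and 76.5. With no replicate, this is a description of these lists and not a test.

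**Figure D3:**
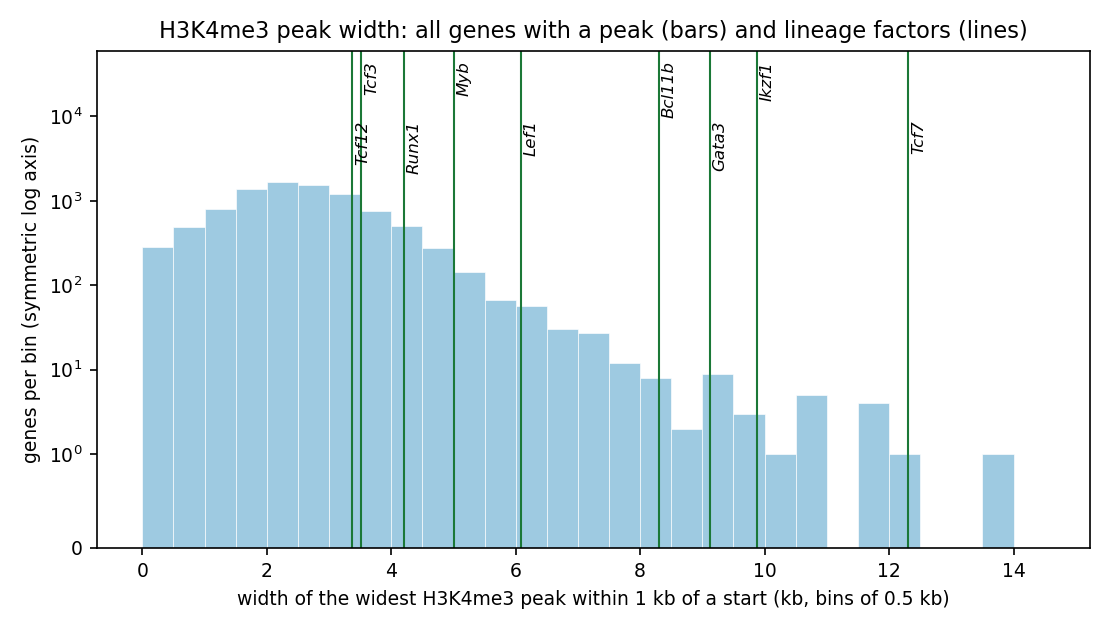
Number of genes (log axis) by width of the widest H3K4me3 peak within 1 kb of a start, in bins of 0.5 kb, for 9253 genes; vertical lines mark 9 lineage factors. Tcf7 is near the right end at 12310 bp, and 6 of the 9 lines lie beyond 5000 bp.

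H3K27ac peaks were wide in the same way, with a median of 5440 bp over the 10 genes against 2045 bp over all genes with one. Widths of p300 (2437 against 1063 bp) and EZH2 (2614 against 788 bp) also differed in this direction, while those of N-MYC (616 against 592 bp) were close to the whole list. Medians of fold enrichment were 39.4 against 26.6 for H3K4me3, 21.3 against 12.4 for H3K27ac, 6.51 against 5.40 for p300, 7.12 against 6.02 for N-MYC and 7.89 against 5.83 for EZH2. Outside Gata3 and Lef1, all EZH2 peaks within 20 kb of the record lay on H3K4me3. At Tcf7, Runx1, Ets1, Myb, Ikzf1, Tcf3 and Tcf12, 100% of the EZH2 peak length within 20 kb of the record lay on H3K4me3 and 0% on SUZ12 or H3K27me3.

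Enhancers were approached by counting H3K27ac and p300 peaks over each gene record and 100 kb either side, a window that holds other genes too, so that a peak in it is not assigned to the factor. The median was 36.5 H3K27ac peaks for the 10 genes, 11 for all genes and 20 for the 8643 genes with H3K4me3 and H3K27ac at a start. Covered length was 53.0 kb against 9.86 and 19.1 kb. Runx1 had the most, with 77 peaks over 76.1 kb, followed in length by Ikzf1 (65.7 kb), Tcf7 (64.5 kb), Ets1 (63.4 kb) and Myb (62.2 kb). These 5 genes were at or above percentile 97.1 of all genes. Tcf12 (9 peaks, 8.14 kb), Gata3 (8 peaks, 11.4 kb) and Lef1 (15 peaks, 16.5 kb) were near the middle of the distribution, so the group was not uniform.

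Longer genes have wider windows, and the difference was smaller per length. H3K27ac peaks per 100 kb had a median of 12.9 for the 10 genes, 4.45 for all genes and 8.67 for genes with active starts. By this measure Tcf7 (21.5), Ikzf1 (20.8) and Tcf3 (20.1) were highest and Runx1 had 18.1. Records of other protein-coding genes reached into the window at 9 of the 10 factors, with 11 at Tcf3, 4 at Tcf7, 3 each at Lef1 and Ikzf1, 1 each at Gata3, Runx1, Ets1, Myb and Tcf12, and 0 at Bcl11b. The one at Ets1 was Fli1, a related Ets-family gene, whose record held peaks counted in the Ets1 window: H3K4me3 of 36.3 at -97.6 to -93.3 kb, H3K27ac of 20.1 and 2 of the p300 peaks.

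The p300 peaks numbered 8.5 in the median window against 3 for all genes and 5 for genes with active starts. Myb had 18, Tcf7 15 and Ets1 11, while Tcf12 had 2. Most p300 peaks away from H3K4me3 were found at few of the genes. Myb had 14 such peaks, Tcf7 8, Bcl11b and Ets1 4 each, Lef1, Runx1 and Ikzf1 2 each, Tcf3 1, and Gata3 and Tcf12 none. The median over all genes was 0.

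**Figure D4:**
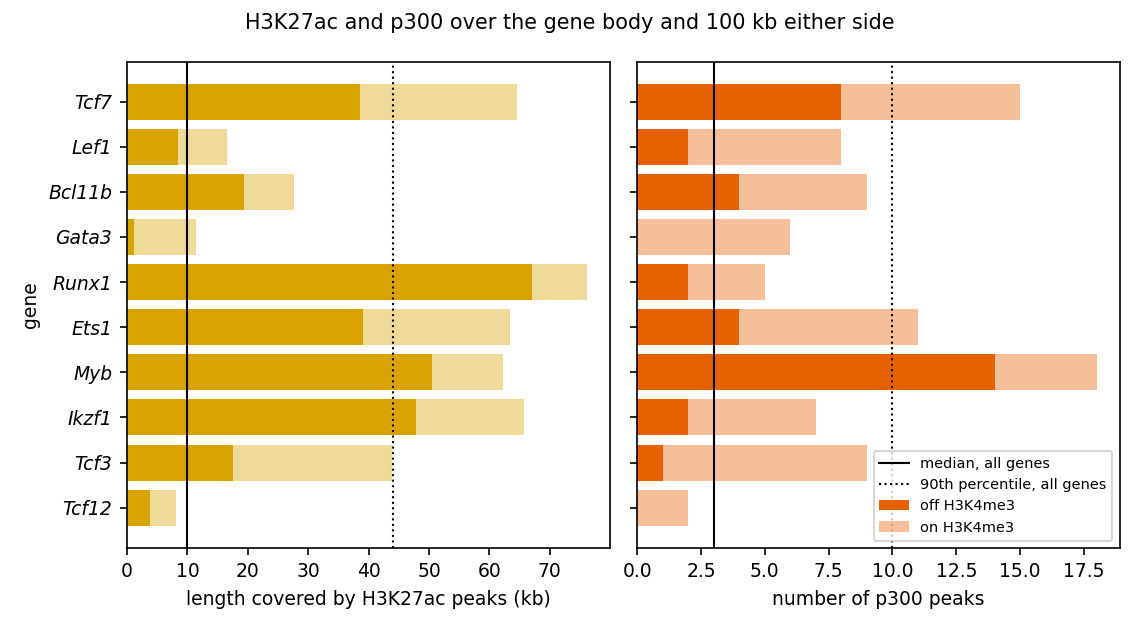
Length covered by H3K27ac peaks in kb (left) and number of p300 peaks (right) over each gene record and 100 kb either side, with the darker bar for peaks off H3K4me3 and the lighter for peaks on it; lines give the median (solid) and 90th percentile (dotted) of all genes. Runx1 has the longest H3K27ac cover (76.1 kb), Myb the most p300 peaks (18), and Gata3 and Tcf12 have no p300 peak off H3K4me3.

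In all, 37 p300 peaks near 8 of the factors lay on H3K27ac and off H3K4me3. Of these, 10 overlapped an N-MYC peak (27%), close to the 25.2% of 2720 such peaks in the genome. The 2 at Runx1 shared 1 N-MYC peak. When overlaps had to cover at least 50% of the shorter peak, 8 of the 37 overlapped N-MYC. The share in the genome was not counted under that setting. None of the 37 overlapped EZH2 (0.588% in the genome) and none SUZ12 or H3K27me3 (5 of the 2720 in the genome). Such overlaps were thus rare at distal p300 peaks everywhere.

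The strongest distal p300 peak of the group was at Tcf7, -30.9 kb from the nearest start, with a fold enrichment of 6.14, on H3K27ac of 11 and with N-MYC of 6.40. A second Tcf7 peak, 14.3 kb downstream of a start and inside the gene, had p300 of 5.14 and no N-MYC. At Ets1 the strongest was 105 kb from the lower end, inside the record, with p300 of 5.64 and N-MYC of 6.37. At Runx1 the peak 24.6 kb downstream of the distal start had p300 of 5.21 on H3K27ac of 14.5, and the N-MYC peak of 4.53 there was the one noted above. That N-MYC peak, at 24.0 to 24.4 kb, spanned the gap between 2 p300 peaks, at 23.8 to 24.2 and 24.4 to 24.7 kb. It overlapped each of them only in part. Runx1 thus had N-MYC partly overlapping distal p300 and at neither promoter.

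Myb had a run of distal p300 peaks upstream, from -25.2 to -91.5 kb, in which the strongest was at -25.7 kb (p300 4.53, no N-MYC). The outermost, at -91.5 kb, had p300 of 4.28 on H3K27ac of 19.0 with N-MYC of 5.17. These 2 lay 0.214 kb and 0.206 kb from annotated starts of other genes, Gm33619 and Gm33728, and were off H3K4me3 all the same. At Bcl11b the strongest was 77.1 kb downstream, inside the gene (p300 4.40, no N-MYC), and another lay at -94.2 kb (p300 3.75, N-MYC 6.73). Ikzf1 had p300 of 4.15 at -5.83 kb, without N-MYC. Lef1 had p300 of 3.53 inside the gene, 3.66 kb from its internal start, and of 3.25 with N-MYC of 6.94 at 97.7 kb from its first start. Tcf3 had 1 such peak, at 104 kb and beyond the end of the gene, with p300 of 3.82 and N-MYC of 6.35. Its H3K27ac peak was 3.75 over 229 bp, and the N-MYC peak also overlapped an H3K4me3 peak of 4.93 next to it.

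**Figure D5:**
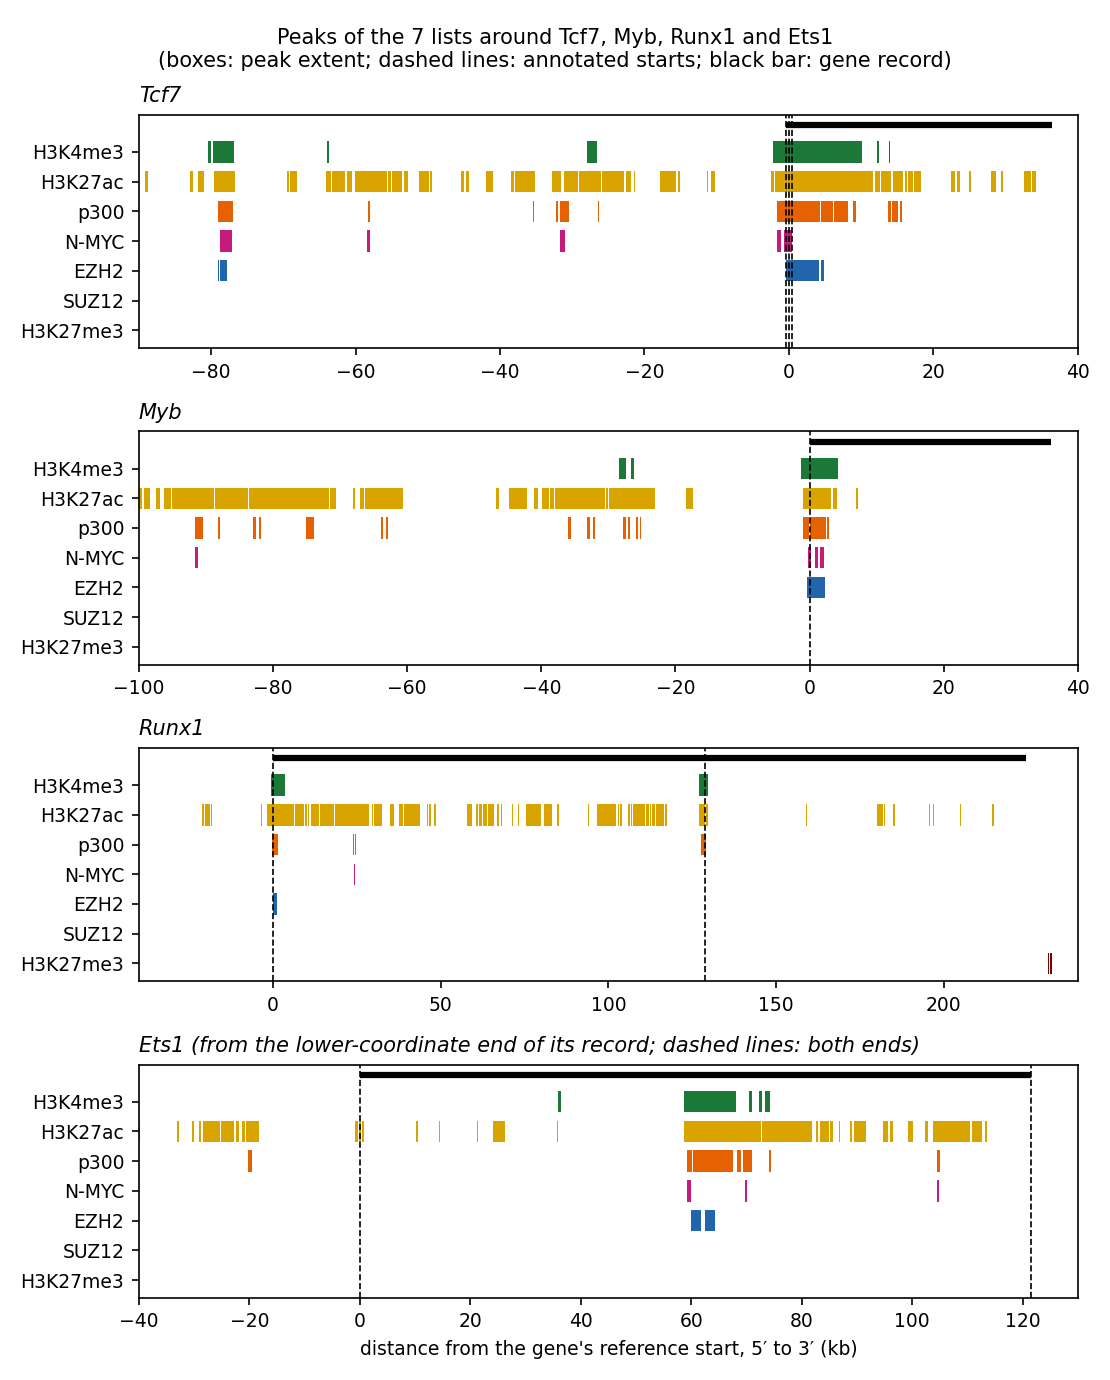
Extent of the peaks of 7 lists (rows of boxes) around Tcf7, Myb, Runx1 and Ets1 against distance in kb from the reference start, or from the lower-coordinate end of the record for Ets1; dashed lines are starts or record ends and the black bar is the gene record. H3K27ac stretches far beyond the starts at all 4 genes, EZH2 peaks in the plotted range lie on H3K4me3, and the single N-MYC peak of Runx1 lies 24.0 to 24.4 kb downstream of its distal start.

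Family members and protein partners of the factors gave a different mixture of states. Of 24 genes listed by family, 15 had annotated starts and were read. SUZ12 or H3K27me3 was found at 8 of the 15 (25.3% of all genes): Tcf7l1 and Tcf7l2 of the TCF family, Bcl11a, Gata2, Runx3, the Ets-family gene Erg, and Id2 and Id4, inhibitors of E proteins. At Tcf7l2, Gata2, Erg and Id4 no H3K4me3 peak was called at a start, whereas all 3 lineage factors with these peaks had one. Gata2, which is used in blood progenitors, had EZH2 of 12.3, SUZ12 of 11.3 and H3K27me3 of 22.4. N-MYC and EZH2 without SUZ12 or H3K27me3 were found at 5 of the 15 (26.3% of all genes), Cbfb, Ets2, Mybl2, Ikzf5 and Id3. Cbfb, the partner of Runx proteins, had N-MYC of 12.5, although Runx1 had none. Runx2 had no peak of any list.

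Among 20 other regulators of thymocytes and T cells, 14 were read. SUZ12 or H3K27me3 was found at 5 (25.3% of all genes and 15.8% of those with H3K4me3). These were Satb1, Gfi1, Foxp1, Egr2 and Eomes, of which Eomes had no H3K4me3. Gfi1, a repressor that acts in early thymocytes, and Foxp1, a factor of T-cell quiescence, had all 7 lists (0.966% of all genes). Lef1, Gata3 and Runx3 had them too. Wide H3K4me3 was not limited to the 10 factors: a peak over 5000 bp was found at 5 of the 12 regulators with H3K4me3, Zbtb7b (13687 bp, wider than at Tcf7), Gfi1 (10749 bp), Elf1 (6894 bp), Zbtb1 (6868 bp) and Patz1 (5619 bp). Among the T-cell markers Cd3d and Cd3g had a peak of 9066 bp at their starts, and of 10 family members with H3K4me3 only Bcl11a (7209 bp) passed this limit. N-MYC and EZH2 without SUZ12 or H3K27me3 were found at 7 of the 14, Foxo1, Nfatc3, Patz1, Zbtb1, Notch1, Elf1 and Tbx21. This combination was present at 26.3% of all genes and at 49.6% of those with H3K4me3, which 12 of the 14 had. Notch1, the receptor that starts the T-cell programme, had N-MYC of 4.01 and EZH2 of 3.60. Foxp3, the factor of regulatory T cells, had no peak.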

How the data were processed

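Peak lists of 7 ChIPmentation libraries from MYCN-driven lymphoma cells, 1 per antibody, were used as deposited by the authors. Bowtie2, SAMtools, MACS2, deepTools and FastQC and the builds mm10 and GRCm38 are named per the submitters' processing notes, without roles or versions. Thresholds, and whether the inputs served as controls or libraries were pooled, are not given in the sources used here. Fold enrichment is the authors' linear ratio over background, taken unchanged. The deposited −log10 p and q-values and the whole-number score are those of the peak caller, and only q and fold enrichment entered results. Read depth is unknown, so no interval is given.

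A gene had a peak where a peak overlapped the 1 kb either side of any start by at least 1 bp. Its fold enrichment was the highest and its width the largest among such peaks, so these could come from different peaks. At a single start, values were those of the strongest peak. Starts were those of the RefSeq promoter table (GRCm38.p6) and the 5′ end of the gene record, and starts with overlapping windows were grouped. Neighbourhoods were the gene record and 100 kb either side. A distal p300 peak overlapped H3K27ac and no H3K4me3 peak. Percentiles are among all genes with a peak of the list.

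All 10 factors are named. Of 24 family members and partners, and of 20 other regulators, those named have SUZ12 or H3K27me3, or N-MYC and EZH2 without them, or lack peaks. Those with H3K4me3 over 5000 bp were named after their values were seen. Like genes are the 3 with peaks in the same lists and the smallest mean absolute difference in log2 fold enrichment. The factors and gene lists were chosen with earlier results of these data known. Labels against markers were checked with lists for T, B, myeloid, erythroid, thymic epithelial, fibroblast and endothelial cells.

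With 1 library per antibody no test was made. Scripts used Python 3.11.15, numpy 2.4.6, pandas 2.3.3 and matplotlib 3.10.9, and the overlap step was tested on simulated data, in which 3000 of 3000 planted genes were recovered among 17492. Alternatives changed the window, the starts, the flank, the limits on q-value and fold enrichment, the list length and the merging of peaks. Reading both ends of every gene record was added after seeing the data.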

Additional observations from a re-analysis of the deposited data

How the results depend on the processing

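Over 13 results and 110 alternative values, 94 stayed within 1.5 times the value reported and 16 did not. The 2 genes with all 7 lists at a start became 1 (Lef1) with the outermost start alone or with both ends of the gene record, and 0 when a peak's summit had to lie in the window. The median of 36.5 H3K27ac peaks per neighbourhood became 10 with a flank of 0 kb, 21.5 with 50 kb, 68.0 with 250 kb, 21.5 with a fold enrichment of at least 4, and 9.5 after merging peaks within 3 kb. The median over all genes was 1, 6, 27, 6 and 5 under these settings, below that of the factors in each. The median of 8.5 p300 peaks became 5.0 with a flank of 0 kb, 5.0 with a q-value of at most 1e-05, 3.5 with a fold enrichment of at least 4, and 5.0 after merging, against 0, 2, 2 and 2 over all genes. Distal p300 peaks numbered 58 when taken as at least 2500 bp from every start, 17 of them with N-MYC, and 18 with a q-value of at most 1e-05, 6 of them with N-MYC. The cause of these changes was not tested beyond what each setting removes or adds. No paired analysis was possible because each antibody had 1 library.

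A window of 2500 or 5000 bp brought the SUZ12 peak of Bcl11b in, which made 3 genes with all 7 lists. With the summit required in the window, the wide H3K4me3 peaks of Tcf7, Lef1 and Gata3 were no longer counted and H3K4me3 was found at 6 genes. Under this setting EZH2 was found at 7 genes instead of 9. The 6 genes with EZH2 and without SUZ12 or H3K27me3 became 4, Runx1, Ikzf1, Tcf3 and Tcf12. Antibody, library and animal cannot be told apart. Unknown depth limits the lists most where peaks are weak, as for H3K27me3 at Bcl11b.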

Other observations

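Among all genes with peaks in the same lists at their starts, those with the most similar fold enrichments were found for each factor. For Myb they were Ciapin1 and Coq9, with a mean absolute log2 difference of 0.06 over 5 lists, and Zfp622 (0.07). For Tcf12 they were Cul1 (0.06), Fxr1 (0.07) and Sec63 (0.08), and for Tcf7 Lsm14a (0.09), U2af1 (0.10) and Mta2 (0.12). Ikzf1 was nearest to Rprd2 (0.09), Rps18 and Vps52 (both 0.10), and Tcf3 to Mxd4 (0.11), Dph3 and Oxnad1 (both 0.14). These 5 factors share their combination of lists with 4485 genes, so close neighbours are easily found. Runx1 was nearest to Galnt10 (0.13), Irak3 (0.23) and Krtcap2 (0.26) over 4 lists and 926 genes. Bcl11b was nearest to Taok1 (0.23), Usp37 and Ahcyl1 (both 0.24) over 6 lists and 148 genes. Lef1 and Gata3, with peaks in all 7 lists, had only 168 genes to be set against. Lef1 was nearest to Zswim6 (0.29), Ccdc92 and Zfp664 (both 0.30), and Gata3 to Ablim1 (0.36), Rgl1 and Cpeb3 (both 0.43). Likeness was not judged for Ets1, which was read in 1 list at the ends of its record.

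Further N-MYC peaks lay near the factors at starts of other genes or at places not described above. The strongest near Tcf12 had a fold enrichment of 12.3 and lay -22.1 to -21.0 kb from its start, on H3K4me3 and EZH2, while one inside the Tcf12 gene, at 75.2 to 75.5 kb, had 6.48 and lay on neither. Near Tcf3 an N-MYC peak of 12.9 lay on H3K4me3 beyond the end of the gene, 34.0 to 35.2 kb from its start. Upstream of Tcf7, at -78.7 to -77.2 kb, an N-MYC peak of 7.2 lay on H3K4me3 and EZH2, with an H3K4me3 peak of 42.3 there against 30.4 at the Tcf7 starts.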
